A study of Mus musculus with 4 samples.

Results

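The gene-desert peaks of tagged MafG in mouse liver were the peaks of the deposited list that lay on chromosomes 1 to 19, outside every protein-coding gene, with a midpoint over 50 kb from the nearest end of such a gene. There were 15301 of them among 66904 peaks on those chromosomes and 68763 in the whole list. They were chosen by position alone, so their heights, tags and noncoding neighbours were not used by the rule. A further 35 peaks met the distance rule but lay beside gene entries without coordinates and were left out. Against the 66858 autosomal peaks that could be placed, the share was 22.9% (exact 95% binomial interval 22.6 to 23.2%).

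The series holds 4 ChIP-seq libraries (chromatin immunoprecipitation with sequencing) from formaldehyde-fixed livers of C57BL6/J mice. In 2 of them the treatment was Ad BLRP MAFG, which gave livers overexpressing MafG with the BLRP peptide tag, and in the other 2 it was Ad BLRP Control; no age is given in the labels. Chromatin of both groups was precipitated with the same Avi-tag antibody, and no library profiled the binding of untagged MafG at its native level. The files gave 1 joint list of peaks called over the control, from 20406492 BLRP-MafG tags and an implied 17200000 control tags, so each peak has 1 value and no spread between animals can be stated. The normalized tag count is the number of tags in a peak per 10000000 tags of the library collection, and all intervals below cover counting error only.

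MafG belongs to the small MAF proteins, leucine zipper factors that carry no activation domain of their own. It binds DNA as a homodimer or with CNC partners such as NRF2 and BACH1, at MAF recognition elements built around a TGA-TCA core flanked by GC, and at antioxidant response elements. Gene deserts are long stretches between neighbouring protein-coding genes; they are known to hold distant enhancers, many of them near genes of developmental regulators, and genes of long noncoding RNAs (lncRNAs).

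The sequences that could be read were the promoters of lncRNA genes, from RefSeq tables of build GRCm38.p6 (the assembly of mm10): 250 bases before to 50 after each start. A gene-desert peak had its midpoint inside 50 such windows, from 49 different peaks, with heights from 5.88 normalized tags upward. Each window was searched on both strands for the core of the MAF element, TGANTCAGC, in which N is any base; every match also contains the shorter AP-1 letters TGANTCA. The 5 windows that hold the core are printed in order of peak height, followed by the tallest window that does not. Capitals mark the core, together with its overlapping match on the other strand in all of these but Gm8883, which has a match on 1 strand.
Gm31613: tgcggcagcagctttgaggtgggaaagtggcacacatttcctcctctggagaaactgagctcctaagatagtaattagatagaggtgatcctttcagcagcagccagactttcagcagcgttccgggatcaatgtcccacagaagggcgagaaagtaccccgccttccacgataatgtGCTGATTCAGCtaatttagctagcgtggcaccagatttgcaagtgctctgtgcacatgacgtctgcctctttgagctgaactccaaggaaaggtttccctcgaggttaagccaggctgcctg
LOC108167736: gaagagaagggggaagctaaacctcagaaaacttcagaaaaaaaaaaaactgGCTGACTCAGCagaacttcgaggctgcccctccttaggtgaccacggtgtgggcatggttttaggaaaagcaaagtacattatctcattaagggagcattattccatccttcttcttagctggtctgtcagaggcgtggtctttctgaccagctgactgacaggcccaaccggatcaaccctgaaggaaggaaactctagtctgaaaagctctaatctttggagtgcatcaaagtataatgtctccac
Gm30075: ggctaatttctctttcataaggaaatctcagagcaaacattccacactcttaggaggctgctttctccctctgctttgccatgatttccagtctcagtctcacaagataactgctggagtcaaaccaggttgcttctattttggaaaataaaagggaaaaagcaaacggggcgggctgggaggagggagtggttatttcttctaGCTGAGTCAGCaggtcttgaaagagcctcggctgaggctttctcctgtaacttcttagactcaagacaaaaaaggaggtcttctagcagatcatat
Gm8883: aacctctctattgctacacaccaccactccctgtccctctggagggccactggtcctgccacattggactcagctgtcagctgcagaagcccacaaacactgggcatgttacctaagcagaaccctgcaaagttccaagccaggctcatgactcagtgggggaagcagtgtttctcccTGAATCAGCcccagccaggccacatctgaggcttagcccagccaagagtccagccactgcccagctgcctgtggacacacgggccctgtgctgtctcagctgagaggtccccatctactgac
Gm32796: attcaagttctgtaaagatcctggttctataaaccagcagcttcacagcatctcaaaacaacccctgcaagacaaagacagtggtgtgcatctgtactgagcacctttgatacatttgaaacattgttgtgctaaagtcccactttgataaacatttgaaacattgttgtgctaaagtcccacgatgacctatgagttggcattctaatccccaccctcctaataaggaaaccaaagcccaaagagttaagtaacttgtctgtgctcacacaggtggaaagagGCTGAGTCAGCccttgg
Gm35361: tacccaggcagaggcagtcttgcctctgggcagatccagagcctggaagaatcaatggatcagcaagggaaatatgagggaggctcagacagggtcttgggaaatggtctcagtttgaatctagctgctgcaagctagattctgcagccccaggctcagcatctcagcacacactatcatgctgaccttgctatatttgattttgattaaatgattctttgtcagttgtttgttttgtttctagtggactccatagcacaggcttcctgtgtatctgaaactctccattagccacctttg

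The core was in 5 of the 50 windows (10.0%, exact 95% binomial interval 3.33 to 21.8%). It was in 48 of 3215 other lncRNA promoters in gene deserts (1.49%), in 1.4% of all 11310 lncRNA promoters and in 1.21% of all 31364 promoters of the table. The 3 tallest of the 50 windows all held it. The peak at Gm31613, a lncRNA gene 64.3 kb from Cxadr (the coxsackievirus and adenovirus receptor), lay at chr16:78236831-78237031 and reached 474.8 normalized tags (445 to 506), with 969 BLRP-MafG tags against 2 control tags. The peak at LOC108167736, 84.8 kb from Zfp648 and 207 kb from Glul (glutamine synthetase), lay at chr1:154116261-154116461 and reached 185.7 (167 to 205). The peak at Gm30075, 137 kb from Rgma (a guidance molecule of the nervous system), lay at chr7:73238594-73238794 and reached 76.0 (64.5 to 88.9) with 0 control tags. These 3 stood above every window without the core.

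The other windows with the core were at low peaks. Gm8883, 235 kb from Fn1 (fibronectin), had 20.1 normalized tags (14.4 to 27.3) at chr1:71887959-71888159. Gm32796, 92.5 kb from Hes1, had 11.8 (7.54 to 17.5) at chr16:29972802-29973002, although its 11 capital letters were the same as those at Gm30075. The 5 core matches lay between 4 and 15 bases from the centre of their peak, within a peak of 200 bases. Peaks at windows with the core had a median of 76.0 normalized tags, and those without it a median of 13.7 and a highest value of 43.1, at Gm35361 (chr14:62146610-62146810). That window, printed last, has no core but holds the letters of the antioxidant element, TGACNNNGC.

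Other letters were searched in the same way. The antioxidant element TGACNNNGC was in 13 of the 50 windows (26.0%), against 10.3% of the other gene-desert lncRNA promoters and 12.5% of all promoters. In 3 of the 13 these letters were the core match itself, and 10 had a match elsewhere. The AP-1 letters TGANTCA were in 22.0% of the 50 windows, against 10.7% and 7.85%; this count includes the core matches. One side of the MAF element, TGCTGA, was in 44.0%, against 21.8% and 19.4%. The full symmetric MAF recognition element, with both flanks intact, was in 0 of 50 windows and in 2 promoters of the whole table. A match is a description of letters, and its absence says only that those letters are not in the window.

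In height the gene-desert peaks were close to the rest of the list. Their median was 12.3 normalized tags (quartiles 7.84 and 25.0), which was also the median of the 32589 peaks inside genes and of the 18968 peaks outside genes and up to 50 kb away. A count of 50 or more was reached by 1592 gene-desert peaks (10.4%, 9.93 to 10.9%), against 10.0% of all autosomal peaks. The share was 10.2% (9.91 to 10.6%) inside genes. Up to 50 kb from genes it was 9.37% (8.96 to 9.8%), an interval below that of the deserts. A count of 100 or more was reached by 527 (3.44%), against 3.73%, and a count of 200 or more by 144 (0.941%, 0.794 to 1.11%), against 1.09%. Of the peaks inside genes, 4.06% (3.84 to 4.28%) reached 100, an interval above that of the deserts (3.16 to 3.75%). At 200 the share inside genes was 1.2% (1.08 to 1.32%), an interval that slightly overlaps that of the deserts. The tallest autosomal peak, of 2108.6, was inside a gene. The tallest gene-desert peak ranked 17 among autosomal peaks. Gene-desert peaks made up 2 of the 20 tallest, 18 of the 100 tallest and 200 of the 1000 tallest. These shares were below the 22.9% that gene-desert peaks made up of all autosomal peaks. Among the 10000 tallest there were 2391, or 23.9%, slightly above that share. No intervals were computed for these shares.

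**Figure D1:**
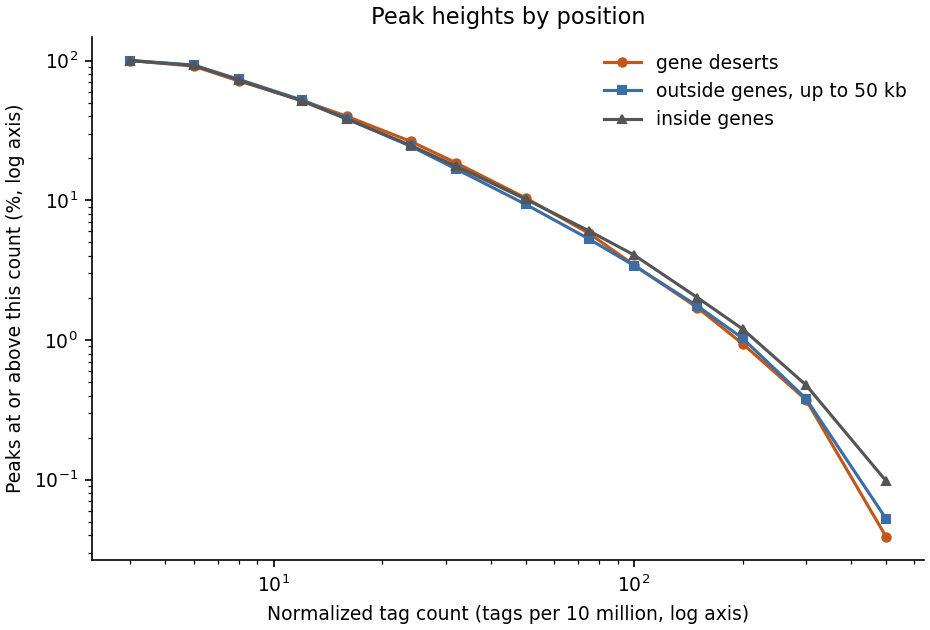
Share of peaks (%, log axis) at or above a normalized tag count (tags per 10000000, log axis) for gene-desert peaks, peaks outside genes up to 50 kb away, and peaks inside genes. The 3 lines run close together up to about 50 normalized tags, where they stand at 10.4, 9.37 and 10.2% in this order. At 200 the line of the peaks inside genes (1.2%) lies above that of the gene deserts (0.941%).

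The control signal under the gene-desert peaks was low, in a list that keeps only peaks of at least 10-fold over control. It was 0 tags at 7141 of them (46.7%), against 43.1% of all other autosomal peaks. Of the 15301 gene-desert peaks 13 had 10 or more control tags, against 52 of the 51557 others. The lower limit of the exact 95% interval of the BLRP-MafG to control ratio exceeded 10 at 2523 gene-desert peaks (16.5%), against 15.4% of all autosomal peaks. The authors' deposited fold over control had a median of 25.3 in the deserts and 23.6 elsewhere.

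The excess over the local surroundings differed more. The authors' deposited fold over the surrounding 10 kb had a median of 25.3 in the deserts (quartiles 13.6 and 50.0), against 13.6 both inside genes and up to 50 kb from them. It was higher at greater distance, with medians of 19.1, 23.5, 28.0 and 38.7 in peaks over 50 to 100, over 100 to 200, over 200 to 500 and over 500 kb from a gene. Among peaks of 10 to 15 normalized tags with no other listed peak within 10 kb, the median was 26.8 in 1699 gene-desert peaks, 15.4 in 1664 peaks up to 50 kb from genes and 15.6 in 2807 inside genes, a somewhat smaller gap. The list keeps only peaks of 4-fold or more over their surroundings, and no value per library exists to test the difference.

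Gene-desert peaks were sparser than other peaks. Sequence over 50 kb from any protein-coding gene made up 834 Mb, or 34.8% of the autosomal sequence between the first and last genes, and held 22.8% of the peaks there. The density was 18.3 peaks per Mb (18 to 18.6) in the deserts and 33.0 (32.7 to 33.3) elsewhere, a ratio of 0.553. For peaks of 50 or more normalized tags it was 1.9 (1.81 to 2.0) and 3.27 (3.18 to 3.36) per Mb. The other 69 gene-desert peaks lay beyond the first or last gene of a chromosome and entered no density.

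The density was lower in each successive distance class. It was 24.8 per Mb (24.1 to 25.5) over 50 to 100 kb from a gene, 21.7 (21 to 22.3) over 100 to 200 kb, 16.7 (16.2 to 17.2) over 200 to 500 kb and 10.9 (10.5 to 11.4) beyond 500 kb. Outside the deserts it was 38.4 within 10 kb of a gene, 33.2 inside genes and 28.8 at 10 to 50 kb. The median height along the same classes was 12.7, 12.7, 12.3 and 11.8 normalized tags. Tall peaks were less frequent far from genes: the share reaching 50 was 10.9, 11.3, 10.2 and 8.06%, and the share reaching 200 was 1.13, 1.28, 0.63 and 0.501% (0.965 to 1.66% in the second class and 0.25 to 0.895% in the last). The 4 classes held 4515, 4302, 4289 and 2195 peaks. The median distance to the nearest gene end was 164 kb (quartiles 90.1 and 327 kb), and 646 peaks were over 1 Mb from one.

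**Figure D2:**
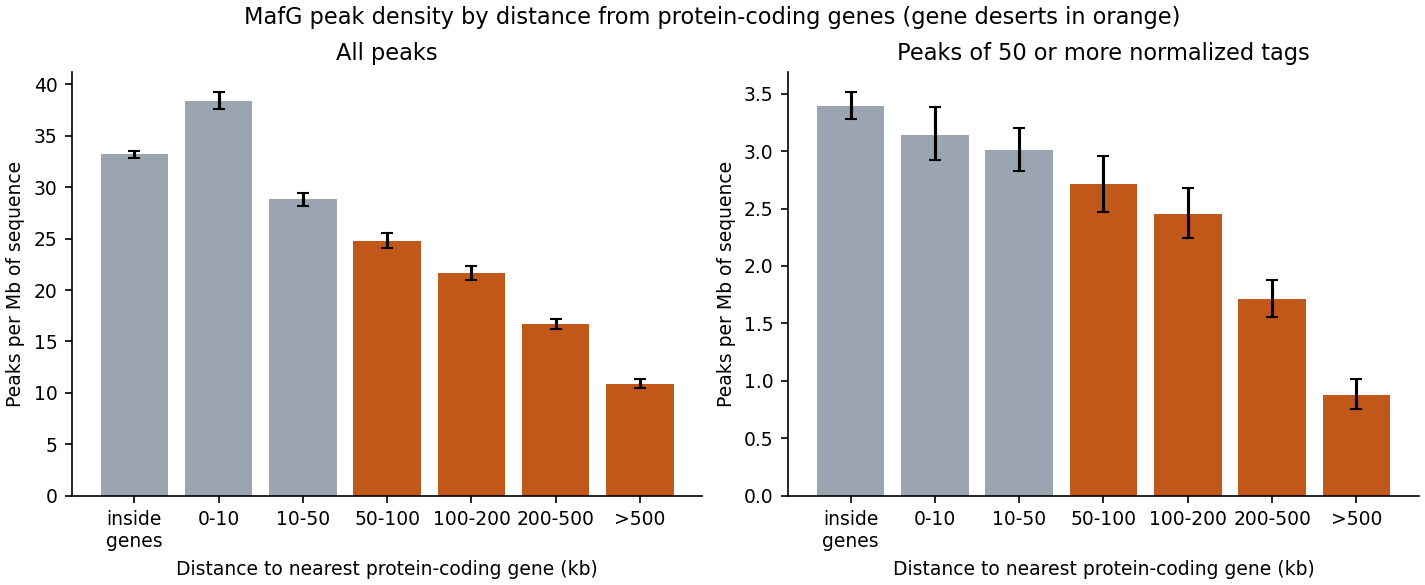
MafG peaks per Mb of sequence (vertical axes) inside protein-coding genes and in classes of distance to the nearest one (horizontal axes, kb), for all peaks on the left and peaks of 50 or more normalized tags on the right; bars start at 0 and error bars are exact 95% Poisson intervals. The 4 orange bars are the gene deserts and step down from 24.8 to 10.9 per Mb on the left and from 2.71 to 0.881 on the right.

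The order by distance was the same within the large deserts. In the 212 deserts with at least 1 Mb of sequence over 50 kb from genes, the density was 18.7, 16.4, 14.7 and 10.9 per Mb across the 4 distance classes. The 50 kb limit cuts a continuous scale. The 3 peaks just inside the rule, at 50003, 50030 and 50036 bp from a gene, had 51.0, 29.4 and 8.82 normalized tags. The 3 just outside, at 49985, 49977 and 49967 bp, had 46.6, 17.2 and 43.1.

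The peaks also stood apart from one another. The median distance from a gene-desert peak to the next listed peak was 16.2 kb, against 9.63 kb for peaks up to 50 kb from genes and 9.64 kb for peaks inside genes. Another listed peak was within 2 kb for 6.96% of gene-desert peaks, 11.5% of peaks up to 50 kb from genes and 11.8% inside genes. With gene-desert peaks joined when 5 kb or less apart, 12620 (82.5%) were alone and 13 stretches held 4 or more. This joining has no like count for other peaks beside it. The stretch with the most, 5 peaks over 11.8 kb on chromosome 11, lay between Ebf1 (a B cell transcription factor) and Clint1, and its peaks had between 9.8 and 29.4 normalized tags. By chromosome, the density ran from 16.1 per Mb on chromosome 14 to 22.3 on chromosomes 9 and 13.

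The tallest gene-desert peaks were spread over many deserts, often far from both border genes. The tallest, at chr18:50498835-50499035, had 664.5 normalized tags (629.6 to 701) and 5 control tags, and lay 68.7 kb from Pudp, a phosphatase gene, and 216 kb from Fam170a. The next, at chr1:12616187-12616387, had 659.1 (624 to 695) and lay 75.9 kb from Sulf1, a sulfatase that trims heparan sulfate, and 640.4 kb from A830018L16Rik. Their intervals overlap, so their order is not settled. The third, at chr2:8628592-8628792, had 597.4 (564 to 632) and 1 control tag, a ratio of 1028 (184 to 40648). It stood near the middle of its desert, 1228 kb from Gata3, a zinc finger transcription factor, and 1232 kb from Celf2, an RNA-binding protein.

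The peak at chr1:35579474-35579674 had 594.4 normalized tags (561 to 629), 489 kb from Hs6st1, which adds sulfate to heparan sulfate, and 700 kb from Plekhb2. At chr7:37020184-37020384 a peak of 553.7 (522 to 587) lay between 2 zinc finger genes, 247 kb from Tshz3 and 298 kb from Zfp536. At chr5:5956808-5957008 a peak of 543.9 (512 to 577) lay 207 kb from Gm46900 and 812 kb from Zfp804b. The first 6 of the tallest peaks had at most 5 control tags each and lay outside annotated noncoding genes.

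The peak at chr13:35087337-35087537 had 490.0 normalized tags (460.1 to 521), from 1000 BLRP-MafG tags and 0 control tags. Its ratio to control was 281 with the control set to a floor of 3 tags, and the lower limit of its exact 95% interval was 228. It lay 60.3 kb from Eci2, a peroxisomal enzyme of fatty acid oxidation, and 572 kb from Cdyl. A peak of 486.1 at chr14:59009640-59009840 was 897 kb from Fgf9, a growth factor, and 123 kb from 1700129C05Rik. A peak of 482.2 at chr3:16130493-16130693 was 52.6 kb from Ythdf3, a reader of methylated RNA. The tenth was the peak at the Gm31613 promoter printed above, inside the lncRNA genes Gm41477 and Gm31613.

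A peak of 461.6 normalized tags (433 to 492) lay 477 kb from Tshz2 and 199 kb from Zfp64. Another of 461.6 lay 231 kb from Nfia, a nuclear factor I protein. A pair in the desert between Zfp516 and Tshz1 reached 458.2 (429 to 489) and 439.1 (411 to 469). These lay 179 and 342 kb from Zfp516, and 828 and 664 kb from Tshz1. All 3 Tshz genes, which encode the teashirt zinc finger proteins, thus bordered a desert with 1 or more of the 20 tallest peaks. Only the peak beside Tshz3 was nearer to the Tshz gene than to the other border gene. A peak of 453.3 lay 73.0 kb from Nfil3, a basic leucine zipper repressor of the circadian clock, and 53.4 kb from Ror2, a Wnt receptor. A peak of 439.1 lay 126 kb from Hes1, a repressor downstream of Notch, and one of 413.6 lay 153 kb from Irx1, an Iroquois homeobox gene.

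The rest of the 20 included the tallest peak of the Myc desert, of 428.8, described with that desert. A peak of 457.7 lay about midway between Matn1, a cartilage matrix protein, and Ptpru, a receptor phosphatase. A peak of 414.6 at chr7:137649747-137649947 was inside the lncRNA gene 4930570E01Rik, 180.2 kb from Glrx3, a glutaredoxin. Of the 20 tallest, 3 had their midpoint inside a lncRNA gene. Peaks were set beside genes by distance alone, which does not show that a peak acts on either neighbour.

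**Figure D3:**
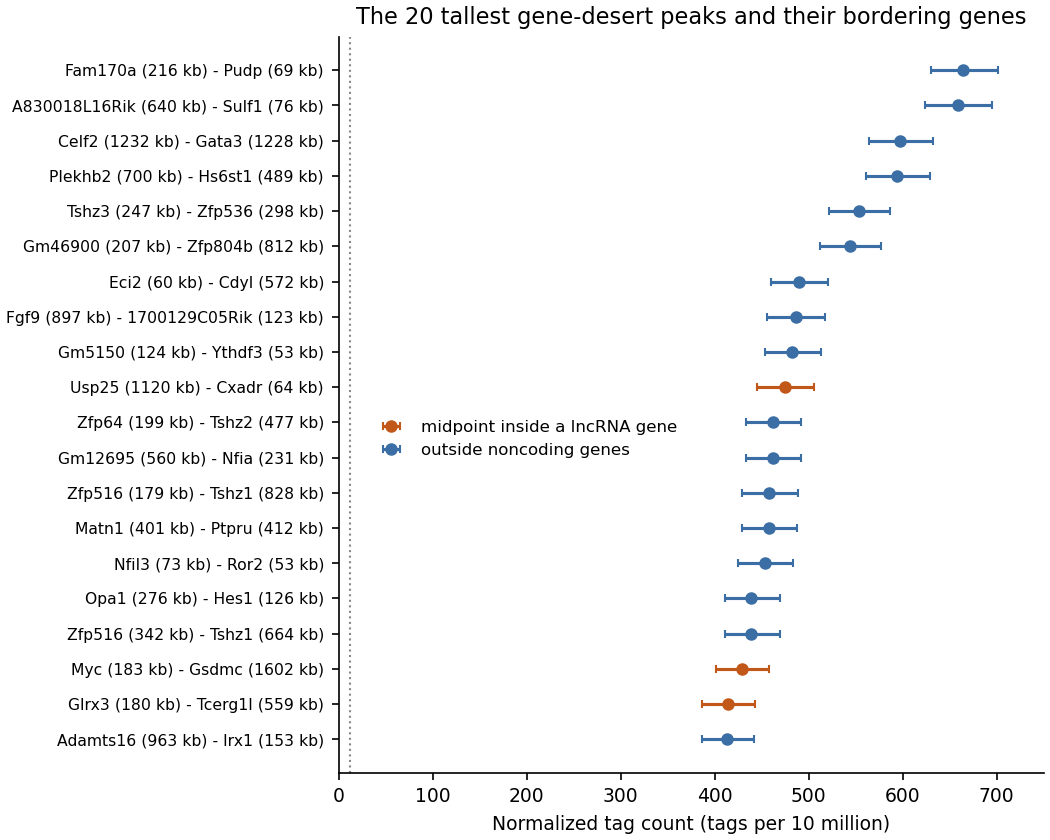
Normalized tag count (horizontal axis, tags per 10000000) of the 20 tallest gene-desert peaks with exact 95% Poisson intervals, each labelled with the genes on its left and right and the distance to each. The points run from 413.6 to 664.5, orange points have their midpoint inside a lncRNA gene, and the dotted line is the median of all gene-desert peaks, 12.3.

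The 5 peaks farthest from any gene had between 5.88 and 17.6 normalized tags, on both sides of the median of 12.3. The farthest, at chr18:28001427-28001627, was 2247007 bp from Celf4 and farther still from Pik3c3 (the class III phosphatidylinositol kinase), with 5.88 normalized tags (3.04 to 10.3). In the desert between Pcdh20 and Pcdh9, 2 genes of protocadherin adhesion proteins, a peak 2239 kb from Pcdh20 had 14.2 (9.52 to 20.4) and one 2218 kb from it had 17.6 (12.4 to 24.4). The latter lay inside the lncRNA gene Gm33246. Between Olfm4 and Pcdh17 a peak 2207 kb from Pcdh17 had 7.84 (4.48 to 12.7).

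The stretches between neighbouring genes that hold sequence over 50 kb from both numbered 2475, and 1954 of them held at least 1 peak. The 521 without a peak were small, with a median of 18.1 kb of such sequence and at most 339 kb. None of the 212 large deserts was without a peak, and 868 deserts held a peak of 50 or more normalized tags. The density was lower in larger deserts, from 28.8 per Mb (27.2 to 30.4) where under 0.1 Mb lay beyond 50 kb to 10.9 (10.5 to 11.4) where 2 Mb or more did. Among the large deserts the median was 12.6 per Mb, with a range from 4.72 to 42.3.

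**Figure D4:**
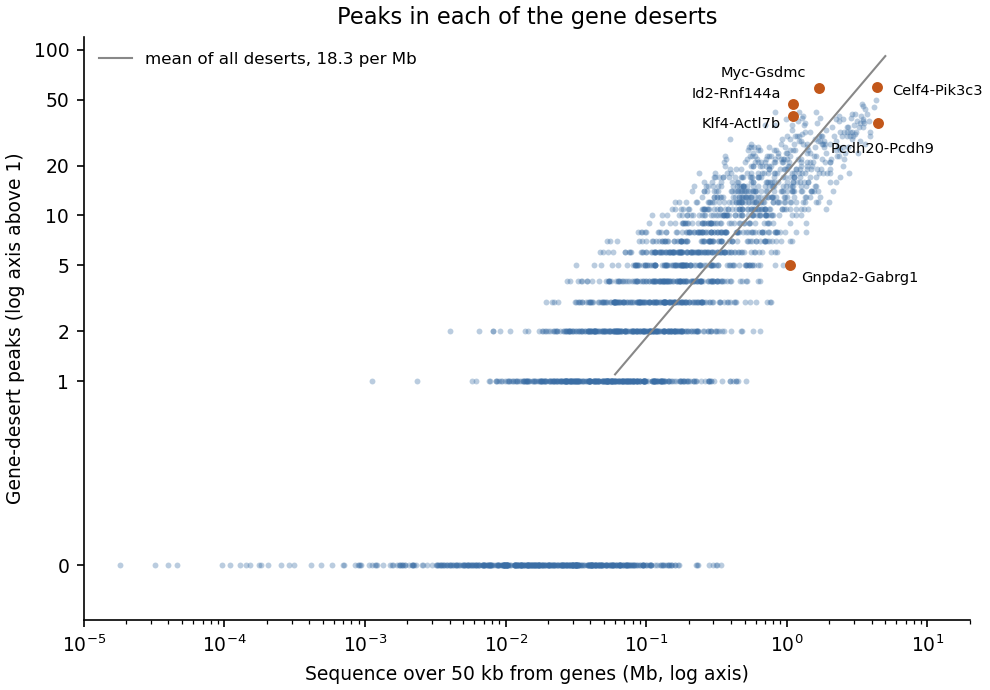
Number of gene-desert peaks (vertical axis, logarithmic above 1) against the sequence over 50 kb from genes (horizontal axis, Mb, log axis) for each of the 2475 deserts; the line is the mean of all deserts, 18.3 per Mb. The Id2-Rnf144a, Klf4-Actl7b and Myc-Gsdmc deserts lie above the line with 47, 40 and 59 peaks, and Gnpda2-Gabrg1 lies below it with 5.

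The order of density that follows is among the 212 large deserts only. The desert between Id2, a helix-loop-helix inhibitor of differentiation factors, and Rnf144a, a ubiquitin ligase, held 47 peaks over 1.11 Mb (42.3 per Mb). The desert between Klf4, a Krüppel-like factor, and Actl7b held 40 peaks at 36.1 per Mb. The desert between Myc, the growth regulator, and Gsdmc, a gasdermin, held 59 peaks over 1.69 Mb (35 per Mb). Gm33989 to Vstm2b followed with 34.5 and Plekhb2 to Hs6st1, which holds the fourth tallest peak, with 32.1 per Mb. At the other end, the desert from Gnpda2 to Gabrg1, a GABA receptor subunit, held 5 peaks (4.72 per Mb), the tallest of 29.9 normalized tags. The deserts of Pcdh9 to Spertl (5.82), Atxn7l3b to Trhde (5.84), 4931408C20Rik to Gm597 (6.03) and Izumo3 to Tusc1 (6.44) were next lowest.

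By number of peaks the order was different. The desert between Celf4 and Pik3c3, 4.51 Mb wide, held 60 peaks, the most of any, but at 13.6 per Mb and with a median of 8.57 normalized tags. The Myc desert, at 1.79 Mb, was next with its 59, and the Id2 desert, at 1.21 Mb, shared the fourth place with its 47. Olfm4 to Pcdh17 held 50 peaks with a median of 9.55. Slc10a2, the bile acid transporter of the ileum, and Efnb2 bordered a desert with 47 peaks at 13.8 per Mb, the tallest of 228.8 normalized tags and 1256 kb from Slc10a2. Stim2 to Pcdh7 held 46, Cntnap5b to Cdh20 held 45 and Zeb2 to Acvr2a 44. The widest, Pcdh20 to Pcdh9 at 4.54 Mb, held 36 peaks at 8.1 per Mb, and Tenm3 to Aga held 30 at 7.71.

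The positions of peaks within 3 of these deserts differed. In the Myc desert the 2 tallest peaks were both inside Pvt1, the lncRNA gene next to Myc. The taller, at chr15:62173733-62173933 and 183 kb from Myc, had 428.8 normalized tags (401 to 458) and 0 control tags; its ratio was 246 against the floor of 3, with a lower interval limit of 199.7. The other, 136 kb from Myc, had 196.5 (178 to 217). Next came a peak of 100.5 at the far end, 68.0 kb from Gsdmc, and 25 of the 59 peaks were under 10 normalized tags.

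In the Id2 desert, 1.21 Mb wide, the 6 peaks of 50 or more normalized tags lay between 102 and 591 kb from Id2. Farther along, toward Rnf144a, the highest had 43.6. A peak of 323.9 normalized tags (299.7 to 349.6) at chr12:25613562-25613762 lay 518 kb from Id2, and one of 214.6 (195 to 236), inside the lncRNA gene Gm36287, lay 102 kb from it. Another of 174.9 (157 to 194) lay 591 kb from Id2. The desert between Zfp516 and Tshz1 was different in that 2 peaks, 179 and 342 kb from Zfp516, exceeded 400 and the other 25 of its 27 peaks were at most 33.3.

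**Figure D5:**
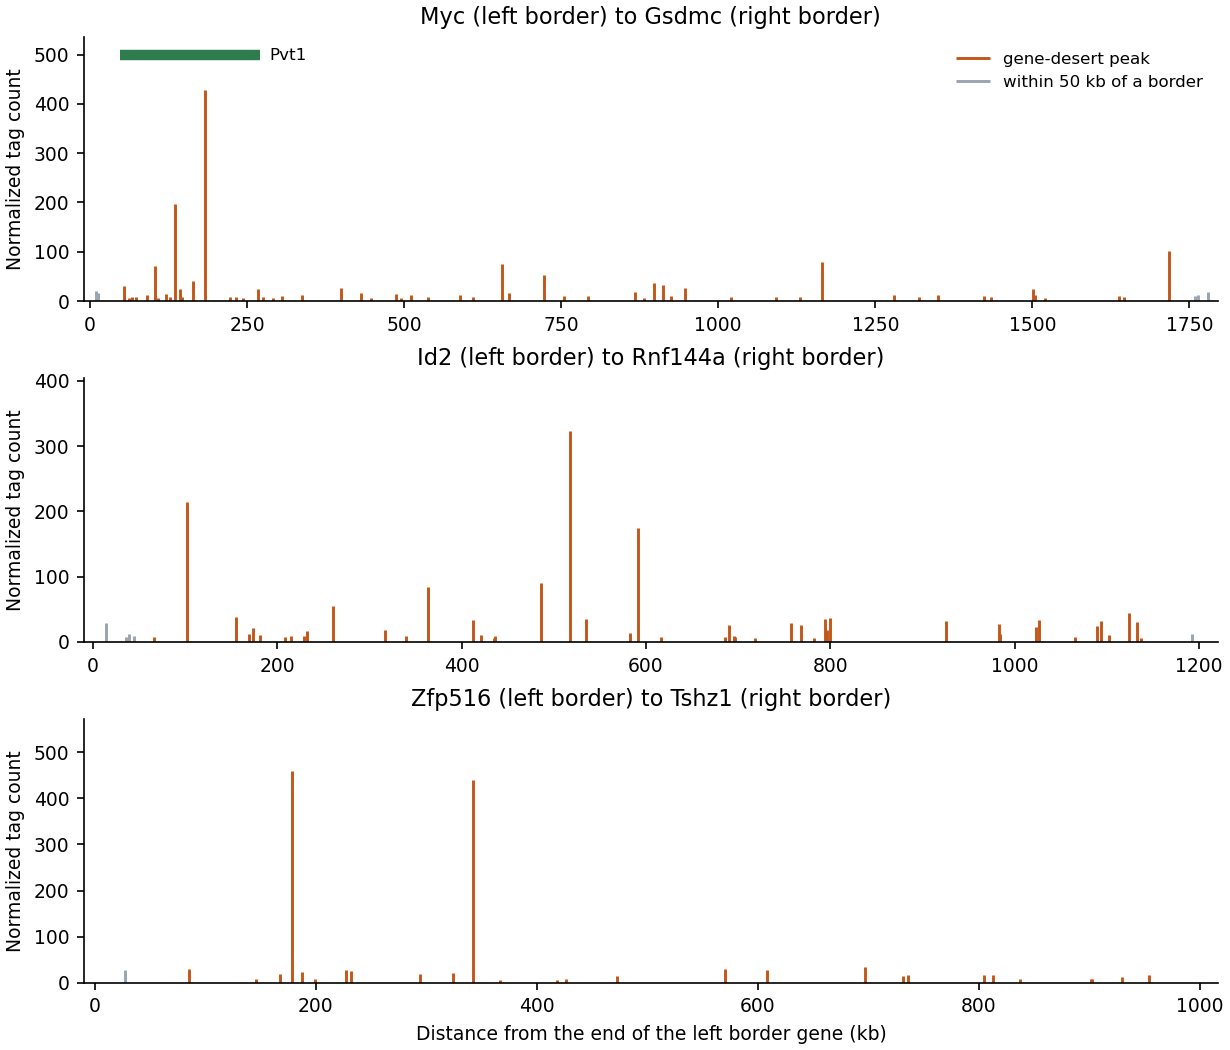
Normalized tag count (vertical axes, tags per 10000000) of each listed peak against the distance from the end of the left border gene (horizontal axes, kb) in the deserts Myc to Gsdmc, Id2 to Rnf144a and Zfp516 to Tshz1; orange lines are gene-desert peaks, grey lines are peaks within 50 kb of a border, and the green bar is Pvt1. The Myc desert has its tallest peaks, of 428.8 and 196.5, under the bar, and the Zfp516 desert has 2 peaks above 400 with none of the others over 33.3.

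Some gene-desert peaks lay in genes that make no protein. The midpoint was inside a noncoding gene at 2434 peaks (15.9%), nearly all of them lncRNA genes (2416, 15.8%). LncRNA genes covered 11.8% of the desert sequence, so peaks were 1.34 times as frequent in them as their length alone would give. Peaks inside noncoding genes had a median of 13.2 normalized tags, against 12.3 for the others. Near lncRNA start sites the excess over length was larger: 239 peaks (1.64%, 1.44 to 1.86%) were within 1 kb of a start that covers 0.737% of the sequence, 2.23 times as frequent. Start sites on chromosome 18 were not used there. Pseudogenes held 226 peaks, 1.21 times as frequent as their length would give.

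The noncoding genes that held a peak numbered 1377, and 844 of them held just 1. The most were in A930011G23Rik (chr5:99297244-99729060), a lncRNA gene with 21 peaks over 432 kb, the tallest of 140.2 normalized tags. Pvt1 (chr15:62037986-62260215) held 19 over 222 kb, or 85.5 per Mb, and 2610307P16Rik held 17 over 425 kb, the tallest of 184.3. Mir100hg, the lncRNA host of a microRNA cluster, held 10, with a highest value of 116.1. By contrast Gm32647, the longest of the 8 genes with the most peaks at 1284 kb, held 12, or 9.35 per Mb.

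Of the tallest peaks inside noncoding genes, after those of Gm31613, Pvt1 and 4930570E01Rik, a peak of 357.7 normalized tags (332 to 385) lay in Gm32679, 226 kb from Hes1, in the same desert as the peak of 439.1. The peak in Gm32679 was nearer to Opa1, at 177 kb. One of 350.4 lay in Gm40908, 117 kb from Slc22a23, and one of 343.5 in Gm33655, 95.6 kb from Trabd2b and 196 kb from Foxd2, a forkhead gene. In Gm47715 a peak of 284.7 (262 to 309) with 0 control tags lay 105 kb from Arg1, the arginase of the urea cycle. In Mir1a-1hg, a microRNA host gene, a peak of 276.4 (254 to 300.2) lay 57.0 kb from Gata5 and 63.7 kb from Slco4a1. All 15 of the tallest were in lncRNA genes and had at most 6 control tags.

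No peak midpoint lay inside a microRNA gene, whose total length in the deserts was 0.013 Mb, and 5 lay within 1 kb of one. The tallest of these had 184.3 normalized tags (166 to 204), 808 bp from Mir6368 and inside 2610307P16Rik. The others were low: 14.7 at Mir6372, 14.2 at Mir539, 10.8 at Mir6351 and 8.82 at Gm51286. Mir539 belongs to the imprinted microRNA cluster between Rtl1 and Dio3. Immunoglobulin and T cell receptor segments, which the gene table does not class as protein-coding, lay in 7 of the deserts; of these the Tmem121 to Adam6b desert held a peak of 377.8 outside the segments.

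The genes that border gene deserts were counted by lists. Of 20554 protein-coding genes, 4068 (19.8%) bordered a desert and 3269 (15.9%) one with a peak. For each list, the number of peaks in the bordered deserts was set against the number expected from desert size alone, at the density of each size class. Neuronal adhesion and synapse genes bordered deserts most often, 96 of 102, followed by developmental transcription factors with 98 of 119, liver transcription factors with 13 of 30, hepatocyte enzymes and secreted proteins with 14 of 53, bile acid genes with 9 of 37, genes of the MAF, CNC and NRF2 pathway with 11 of 46, and olfactory and vomeronasal receptors with 97 of 1452.

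Peaks exceeded the number expected from desert size most beside genes of the MAF, CNC and NRF2 pathway (98 peaks, 1.7 times) and liver transcription factors (224 peaks, 1.53 times). This order rests on 1 desert: without the one between Maf and Dynlrb2, the pathway list had 63 peaks and a ratio of 1.42. Without its own desert of the most peaks, the liver list had 1.48 and the bile acid list 1.49. With all deserts kept, the counting intervals overlap: 1.38 to 2.07 (pathway), 1.34 to 1.74 (liver) and 1.11 to 1.67 (bile acid). In that count the ratio was 1.37 for bile acid genes, 1.14 for hepatocyte genes and 1.12 for developmental transcription factors. It was 0.842 for neuronal adhesion genes and 0.568 for olfactory and vomeronasal receptors. The share of peaks reaching 50 normalized tags was 10.2% and 10.7% in the first 2 lists, close to the 10.4% of all deserts, and 1.54% at the receptor genes. The median height was 14.7 normalized tags in the pathway list, 13.2 beside developmental transcription factors, 12.3 beside liver transcription factors, 11.8 beside hepatocyte genes, 11.3 beside neuronal genes, 10.8 beside bile acid genes and 9.31 beside the receptors, against 12.3 in all deserts. These ratios and medians describe lists of unequal size and carry no test.

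In the NRF2 pathway list the tallest peak, of 176.9 normalized tags (159 to 196), lay 221 kb from Slc7a11, the cystine transporter. A peak of 157.8 (141 to 176) lay 438 kb from Maf, a large MAF protein, in a desert that alone gave 35 of the list's 98 peaks. It was nearer to Dynlrb2, at the other border. Peaks beside the other named genes were lower: 29.4 beside Mgst1, a microsomal glutathione transferase, and 28.4 in the desert of Nfe2l2, which encodes NRF2. One of 21.6 lay 56.2 kb from Gclc, of glutathione synthesis. The peak given for Nfe2l2 lay 75.8 kb from that gene and nearer to Agps, at the other border.

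Beside liver transcription factors the tallest peaks were 245.0 at 94.7 kb from Tbx3, 214.1 at 165 kb from Gata6 and 184.7 at 114 kb from Cebpb, the basic leucine zipper factor of the acute phase response. Bcl6 and Prox1, regulators of hepatocyte lipid genes and of liver development, followed with 105.4 and 104.9. The peak given for Gata6 was nearer to Mib1, at the other border of its desert. Among hepatocyte genes, the peak beside Arg1 given above was the tallest, and a peak of 271.0 lay in the desert of Apob, the structural protein of secreted lipoproteins, but 1953 kb from it. Lpin1, a phosphatidate phosphatase, had one of 248.5 at 195 kb, and Insig2, a sensor of sterols, one of 80.9 at 377 kb. The peak given for Insig2 was nearer to En1, at the other border.

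Beside bile acid genes, all 8 peaks of 50 or more normalized tags lay in the desert of Slc10a2, none nearer to that gene than 1145294 bp. They were led by the peak of 228.8, 1256 kb from Slc10a2. Next was one of 166.6, just 86462 bp from Efnb2 at the other border. Peaks beside the other bile acid genes reached 35.8 normalized tags (28.0 to 45.0) at 164 kb from Akr1d1, a reductase of bile acid synthesis. One of 29.9 (22.9 to 38.4) lay 196 kb from Cyp7b1, an oxysterol hydroxylase. A peak of 28.4 lay 54.3 kb from Akr1c6, and one of 18.6 lay 87.3 kb from Abcd3, a peroxisomal transporter. The peaks given for Akr1d1 and Abcd3 were nearer to Trim24 and Arhgap29, at the other borders of their deserts. In the deserts of neuronal genes, where the density was low, single tall peaks also occurred, most of those named here nearer to the other border gene. One of 342.0 lay 1292 kb from Ctnna3, a catenin, and 713 kb from Reep3. One of 327.8, with 0 control tags, lay 1759 kb from Cdh18, a cadherin, and nearer to Basp1. One of 325.9 lay 172 kb from Unc5c, a netrin receptor, and nearer to Pdha2. One of 280.8 lay 1256 kb from Lrp1b and nearer to Ppp6c. By contrast one of 289.1 (266 to 313) lay 87.8 kb from Negr1, which was its nearer border gene. At the receptor genes the tallest was 73.0, in the desert between Olfr266 and Kcna3 and nearer to Kcna3.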

How the data were processed

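ChIP-seq was carried out in 2 BLRP-MafG and 2 BLRP-control libraries of mouse liver. Bowtie2, HOMER and build mm10 are named in the submitters' processing notes, without tool versions. The authors called peaks on 1 BLRP-MafG and 1 control tag collection (peak size 200, at least 400 bp apart, 10-fold over control at p of 1e-06, 4-fold over the local 10 kb, at least 11 tags), per the file headers; whether each collection joined both libraries is not known. Signals in the deposited list are the normalized tag count, scaled by the authors to 10000000 tags, and the control signal, in which 0.5 stands for 0 tags. Deposited fold values are linear ratios, deposited p-values are Poisson p-values of the peak caller, and neither they nor the deposited score were used to choose peaks.

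Normalized tag counts multiplied by the stated total came within 0.11 of whole tags at 100% of peaks, and these tags gave exact 95% Poisson intervals and exact 95% conditional binomial intervals of ratios, against a floor of 3 control tags where the control was 0. A ratio on the same floor was also given for the third tallest peak, which had 1 control tag. Genes came from an NCBI RefSeq table of GRCm38.p6, with 20554 protein-coding genes on chromosomes 1 to 19 used; 363 entries on scaffolds or patches and 4 without coordinates were left out. Desert sequence was counted between gene ends and includes any stretch that could not be sequenced or mapped. Median depth was 25 BLRP-MafG tags per peak, so single median peaks are known only roughly. No test was run, because the list holds no value per library. The geometry and density steps were tested on simulated data.

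The members and gene lists were chosen with earlier results of these data known. Peaks, deserts and genes were named by rule: the 20 tallest and 5 farthest peaks, the deserts with the most peaks, the widest and the densest and sparsest of those of 1 Mb or more, the 15 tallest peaks in noncoding genes, the 8 noncoding genes with the most, the 5 genes per list with the tallest peak, and the 3 peaks on each side of the 50 kb limit. Promoter sequences were printed by height among windows that hold the core; the deserts drawn as maps, and the closing comparison with immune receptor segments, were chosen after their values were seen. List genes not found on these chromosomes under their listed symbols, such as Otc, F9 and G6pdx, were not used. Alternatives changed the distance, the peak threshold and the genes that bound a desert. Python 3.11.15, numpy 2.4.6, pandas 2.3.3, scipy 1.17.1 and matplotlib 3.10.9 were used.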

Additional observations from a re-analysis of the deposited data

How the results depend on the processing

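Each of 6 summary values was recomputed with 1 choice changed. With deserts over 100 kb from genes, the share of autosomal peaks was 16.1%, the density ratio 0.511 and the share inside noncoding genes 14.6%; with over 25 kb, the share was 29.7% and the ratio 0.59. Keeping peaks of at least 20-fold over control left 10098 gene-desert peaks (23.5% of autosomal peaks), with a median of 14.2 normalized tags, 14.7% reaching 50 and a density ratio of 0.574. Keeping peaks of at least 20 BLRP-MafG tags left 9520, with a median of 20.1 and 16.7% reaching 50. With noncoding genes also bounding deserts, 7281 peaks remained (10.9%), with a median of 11.8, 9.35% reaching 50, a density ratio of 0.466 and, by construction, 0% inside noncoding genes. Without predicted gene models the share was 24.1%. Counting peaks within 1 kb or 10 kb of a noncoding gene gave 17.3% and 26.6%. With immune receptor segments also bounding deserts, an alternative chosen after seeing the data, 15195 peaks remained. With the desert of the most peaks left out of each gene list, also chosen after seeing the data, each of the 7 ratios to the expected number stayed within the counting interval of its first value. The density ratio stayed below 1 in all 7 alternatives run for it, from 0.466 to 0.59.

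No paired analysis was possible because the deposited list holds 1 joint value per peak and none per library; for the same reason no library was left out in turn. Depth limits single peaks: a median peak has 25 tags, and signal below the caller's limits is not listed.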

Other observations

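Gene-desert peaks by the same distance rule were also on the X chromosome, which the rule for chromosomes 1 to 19 leaves out. There were 516 of them among 1592 peaks of that chromosome (32.4%), at 6.85 per Mb of desert sequence (exact 95% Poisson interval 6.27 to 7.47), with a median of 9.31 normalized tags and 22 (4.26%) reaching 50. The tallest, at chrX:12409404-12409604 between Bcor, a corepressor of BCL6, and Atp6ap2, had 352.3 normalized tags and 0 control tags. The next had 171.0, between Xlr and Gm14596, and 157.3, between Gm14725 and Mamld1.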
